A study of Mus musculus with 6 samples.

Results

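Homeostatic microglia signature genes are transcripts that mark resident microglia of the healthy brain, here Tmem119, Cx3cr1, Sall1, Gpr34, Fcrls, Olfml3, Selplg, Slc2a5, Slco2b1 and Crybb1. They were taken by gene symbol, with purinergic and TGF-beta receptors left to one side, and not by any measured value. Earlier results of these data were known when they were chosen. All 10 were found among 19938 genes with a probe set of their own, each with 1 of the 35557 probe sets on the array. RNA came from primary microglia cultured from the cerebral cortex of mice aged 2 days, collected after 10 days of culture and replated for 24 h before harvest, and the labels name no stimulus. There were 3 arrays from fosB-null mice, homozygous for the null allele fosBG and carried on C57BL/6J to backcross generation N20, and 3 from C57BL/6J wild-type mice. The allele is a germline one, so every cell of the culture carried it. The labels call the arrays of a group biological replicates without saying how many pups went into each, so p-values measure the spread between these arrays.

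Microglia are the resident macrophages of the brain. Their homeostatic signature is maintained in the tissue by TGF-beta signalling and by transcription factors that include PU.1 and SALL1, and it is known to weaken when microglia are activated or placed in culture. FosB belongs to the AP-1 family of transcription factors. The comparison described here asks how far the signature of cultured microglia differed between cells with and without Fosb.

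RefSeq start sites with flanking sequence (GRCm38.p6) were matched for 7 of the 10 genes, with 11 start sites in all. Tmem119, Selplg and Gpr34 were not matched. The upstream sequences of Slco2b1 and Fcrls are shown because these genes had the largest differences between the genotypes in each direction. For Slco2b1 the run also leads into the only motif matches found. Each is the 250 bases before a start site, written 5′ to 3′ on the strand of the gene, in lower case because none of the motifs searched lies in it. The Slco2b1 run (the farthest upstream of its 3 start sites in the table) lies at chr7:99711341-99711590 on the minus strand. The Fcrls run lies at chr3:87263525-87263774, also on the minus strand.
Slco2b1: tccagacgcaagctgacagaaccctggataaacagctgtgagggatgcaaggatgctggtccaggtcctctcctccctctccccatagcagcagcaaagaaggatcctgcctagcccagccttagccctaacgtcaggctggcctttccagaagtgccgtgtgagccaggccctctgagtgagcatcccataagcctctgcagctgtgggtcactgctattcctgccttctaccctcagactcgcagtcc
Fcrls: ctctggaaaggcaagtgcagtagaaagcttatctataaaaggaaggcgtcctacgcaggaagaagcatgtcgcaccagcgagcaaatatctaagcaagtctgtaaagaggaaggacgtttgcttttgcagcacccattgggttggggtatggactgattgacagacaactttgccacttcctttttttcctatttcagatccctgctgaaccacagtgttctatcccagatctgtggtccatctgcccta

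The windows from 250 bases before to 50 bases after each start site were searched on both strands for 4 motifs. These were TGANTCA for AP-1, GAGGAAGT for PU.1, GGAANNGAA for the joint PU.1 and IRF element and GTCTAGAC for SMAD factors. Of all 32851 RefSeq windows, 7.81%, 3.20%, 8.24% and 0.213% held them, in that order. Among the 11 windows of these genes, 1 held AP-1 letters and 1 held PU.1 letters, and none held either of the other motifs. Both matches lie in the same Slco2b1 window, just after the start site, where the PU.1 letters span bases 7 to 14 and the AP-1 letters bases 14 to 20, so they share a T. The 30 bases around them, at chr7:99711313-99711342 on the minus strand, are shown with the matches in capitals.
Slco2b1 site: ccatgaggGAGGAAGTGACTCAtcttccgg

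The deposited values were log2 signals, with array medians over all 35557 probe sets between 7.76 and 7.92. Between 45.2% and 51.3% of probe sets were identical to the last digit on a wild-type and a fosB-null array of equal replicate number, against at most 3 probe sets between arrays of unequal number. The replicate numbers therefore pair a wild-type with a fosB-null array, and a 0 from such a tie does not measure that the genotypes were equal. Among the signature genes 8 of 30 pair differences were exactly 0, or 26.7%, against 57.6% over all tested probe sets. Cx3cr1, Gpr34, Fcrls and Olfml3 had no tied pair. The limma fit called 1 of 23410 tested probe sets, C5ar2, at an adjusted p under 0.05.

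None of the 10 signature genes passed the test between fosB-null and wild-type microglia, where limma called 0.00427% of all tested probe sets. All differences are in log2 signal, with the wild-type value subtracted from the fosB-null value, and they ran from -0.16 for Slco2b1 to 0.13 for Fcrls. All 10 limma adjusted p-values were 1, and no gene had an unadjusted p under 0.05, a level reached by 0.722% of tested probe sets. This fit counts the spread between replicate numbers as error, and its p-values do not show that the genotypes were equal. Probe sets tied in all pairs, 27.8% of those tested, could not reach an unadjusted p under 0.05. The wild-type and fosB-null arrays overlapped for every signature gene, whereas 1.12% of tested probe sets had groups that did not overlap. A tied pair forces such an overlap, so for the 6 genes with a tie it was fixed beforehand. Of the 3520 tested probe sets without a tie, 262 did not overlap. In this fit, which leaves the pairing out, the 95% interval of the difference held 0 for all 10 genes. It reached at most from -0.49, or 1.40-fold lower, for Slco2b1 to 0.41, or 1.33-fold higher, for Fcrls. With replicate number as a fixed block, intervals were wider for some genes, from -0.81 to 0.63 for Olfml3 and from -0.52 to 0.61 for Gpr34. They were narrower for others, from -0.06 to 0.32 for Fcrls and from -0.03 to 0.04 for Tmem119, which has a tied pair. In bulk RNA, fewer cells of a type and less RNA per cell cannot be told apart. When limma treated replicate number as a random block, Fcrls and Slco2b1 reached unadjusted p-values of 0.0120 and 0.0211, with adjusted p-values of 0.371 and 0.412. Their 95% intervals there, from 0.04 to 0.22 and from -0.28 to -0.03, did not hold 0. In that fit 9.63% of tested probe sets had an unadjusted p under 0.05. By mean, 7 genes were higher in fosB-null arrays and 3 lower, with a median difference of 0.02. Over all tested probe sets 30.9% were higher, 41.3% lower and the rest at 0, with a median of 0.00. The plot of signals by array shows the crossing lines behind these means.

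**Figure D1:**
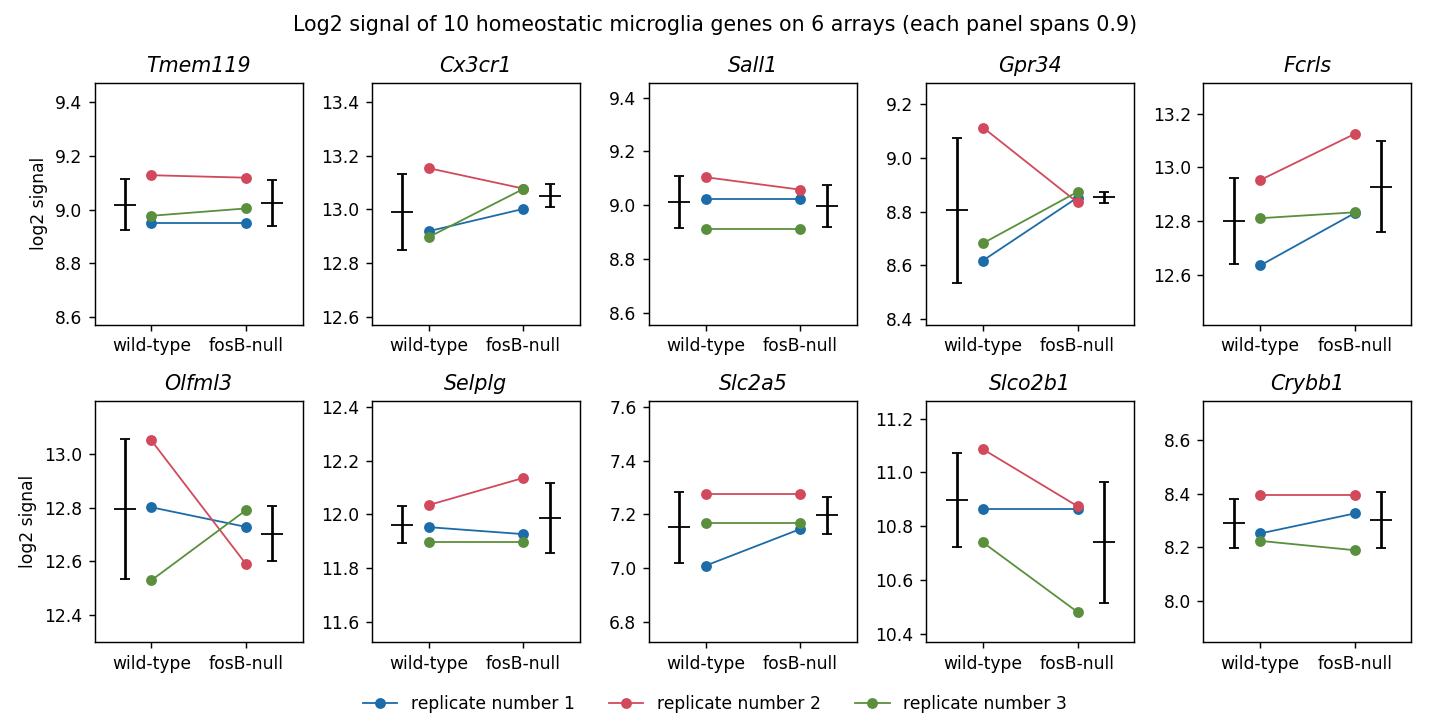
Log2 signal (vertical axis, each panel spanning 0.9) of the 10 genes on the wild-type and fosB-null arrays. Points are single arrays, lines join arrays with the same replicate number, and black marks give the mean ± SD of 3 arrays. The groups overlap in every panel, and replicate number 2 is the highest wild-type array throughout.

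Cx3cr1 encodes the fractalkine receptor, through which microglia sense a ligand displayed by neurons. Its log2 signal was 12.92, 13.15 and 12.90 on wild-type arrays 1, 2 and 3 and 13.002, 13.08 and 13.08 on fosB-null arrays 1, 2 and 3. The fosB-null arrays lay within the wild-type range. The means were 12.99 ± 0.14 and 13.05 ± 0.04 (SD, n = 3 each), which put fosB-null 0.06 higher (SE 0.09, 95% interval from -0.15 to 0.27). The pairs differed by 0.08, -0.08 and 0.18, so their direction was mixed.

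Gpr34 encodes a G protein-coupled receptor for lysophosphatidylserine. On wild-type arrays its log2 signal was 8.62, 9.11 and 8.68, and on fosB-null arrays 8.85, 8.83 and 8.87. The fosB-null values sat close together, and the wild-type values lay on both sides of them. The group means were 8.81 ± 0.27 and 8.85 ± 0.02 (SD, n = 3 each), with a difference of 0.05 (SE 0.13, 95% interval from -0.27 to 0.37). In the pairs it differed by 0.23, -0.28 and 0.19, and without wild-type replicate 1 the mean difference turned to -0.04. Without wild-type replicate 2 it was 0.20 (limma unadjusted p = 0.0432). Without both arrays numbered 2 it was 0.21 (limma unadjusted p = 0.0270), and neither fit called Gpr34 after adjustment.

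Fcrls, an Fc receptor-like scavenger receptor gene that marks mouse microglia, was the only one of the 10 whose 3 pairs all pointed one way, a pattern found in 7.77% of tested probe sets. A tied pair rules this pattern out, so only 4 of the 10 genes could show it. Of the 3520 tested probe sets without a tie, 1820 showed it. The log2 signal of Fcrls was 12.64, 12.95 and 12.81 on wild-type arrays and 12.83, 13.13 and 12.83 on fosB-null arrays. Wild-type array 2 lay above fosB-null arrays 1 and 3, so the groups overlapped. The means of 12.80 ± 0.16 and 12.93 ± 0.17 (SD, n = 3 each) differed by 0.13 (SE 0.12, 95% interval from -0.15 to 0.41). The pair differences were 0.19, 0.17 and 0.02. Without fosB-null replicate 2 the difference was 0.03, and without wild-type replicate 1 it was 0.05.

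Selplg encodes PSGL-1, a glycoprotein ligand of selectins, and Tmem119 a membrane protein used to tell microglia from other macrophages. The genes are direct neighbours among protein-coding genes on chromosome 5 in RefSeq. Selplg had log2 signals of 11.95, 12.03 and 11.90 on wild-type and 11.93, 12.13 and 11.90 on fosB-null arrays, a difference of 0.02 (95% interval from -0.19 to 0.24). Its arrays numbered 3 were exactly tied. Tmem119 had 8.95, 9.13 and 8.98 on wild-type and 8.95, 9.12 and 9.004 on fosB-null arrays, a difference of 0.01 (95% interval from -0.19 to 0.20), with a tie in pair 1. For Tmem119 the spread between replicate numbers was far wider than any pair difference, the largest of which was 0.03.

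Sall1 encodes the zinc finger transcription factor that maintains microglial identity, and within the brain's myeloid cells it is a marker of microglia. Its log2 signal was 9.02, 9.10 and 8.91 on wild-type arrays and 9.02, 9.06 and 8.91 on fosB-null arrays. Pairs 1 and 3 were exactly tied, so the mean difference of -0.02 (SE 0.08, 95% interval from -0.21 to 0.18) came from pair 2 alone, at -0.05.

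Slco2b1, an organic anion transporter gene, had the largest difference of the set. Its log2 signal was 10.86, 11.09 and 10.74 on wild-type arrays and 10.86, 10.87 and 10.48 on fosB-null arrays. fosB-null array 3 was the lowest of the 6 and wild-type array 2 the highest, while pair 1 was exactly tied. The means of 10.90 ± 0.18 and 10.74 ± 0.22 (SD, n = 3 each) differed by -0.16 (SE 0.14, 95% interval from -0.49 to 0.18), or 1.11-fold lower in fosB-null arrays. Pairs 2 and 3 differed by -0.21 and -0.26. Without fosB-null replicate 3 the difference was -0.03, and without wild-type replicate 2 it was -0.06. Slco2b1 is the only one of the 10 on the chromosome of Fosb, chromosome 7, and lies 714 measured genes from it in RefSeq order.

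Slc2a5 encodes GLUT5, the fructose transporter that microglia carry. It measured 7.01, 7.27 and 7.17 on wild-type arrays and 7.15, 7.27 and 7.17 on fosB-null arrays. Pairs 2 and 3 were tied, and the mean difference of 0.05 (95% interval from -0.17 to 0.26) came from pair 1, at 0.14. Its mean signal was above that of only 36.0% of all probe sets, a position that also depends on the probes.

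Olfml3 encodes a secreted olfactomedin-like matrix protein, and it varied most between pairs. Its log2 signal was 12.80, 13.05 and 12.53 on wild-type arrays and 12.73, 12.59 and 12.79 on fosB-null arrays. Wild-type arrays 2 and 3 were the highest and lowest of the 6. The pair differences of -0.07, -0.46 and 0.26 spanned 0.72, and the mean difference was -0.09 (SE 0.14, 95% interval from -0.42 to 0.24). Without wild-type replicate 2 it turned to 0.04.

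Crybb1 encodes a beta-crystallin, a lens protein family, and is also enriched in microglia. It measured 8.25, 8.39 and 8.22 on wild-type arrays and 8.33, 8.39 and 8.19 on fosB-null arrays. The pairs differed by 0.07, 0.00 and -0.03, the second being an exact tie, and the mean difference was 0.01 (95% interval from -0.19 to 0.22). Fcrls, Cx3cr1 and Slco2b1 kept the sign of their difference whichever array or pair was left out, and the other 7 did not. For Cx3cr1 the difference was nevertheless 0.0038 without both arrays numbered 3, 0.016 without wild-type replicate 3 and 0.144 without wild-type replicate 2.

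**Figure D2:**
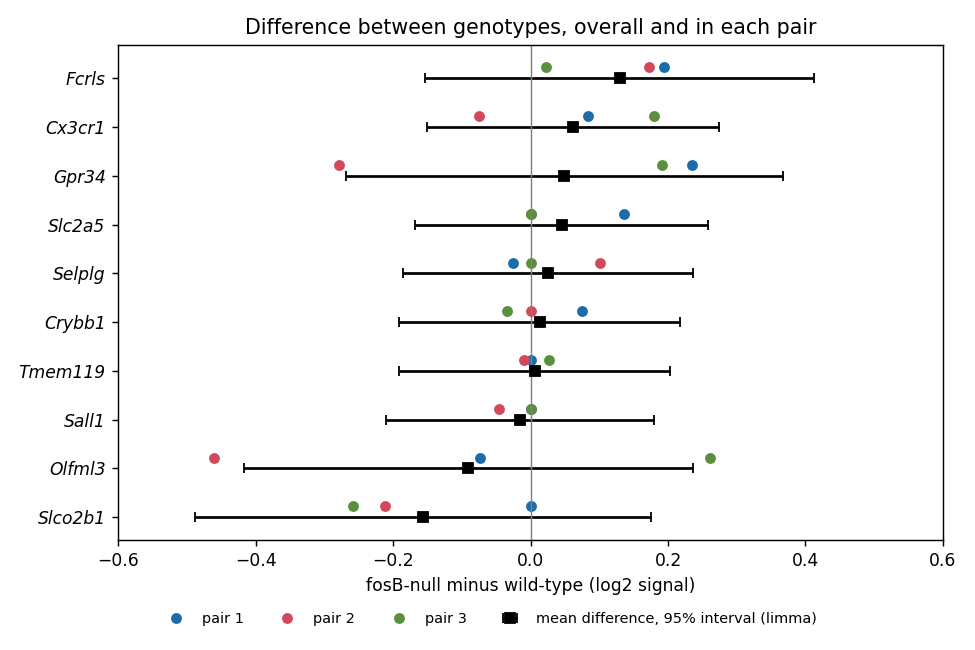
Difference between fosB-null and wild-type arrays (horizontal axis, log2 signal) for each gene. Squares with bars give the limma mean difference and its 95% interval in the fit without a block. Coloured points give the difference within each pair of same-numbered arrays. Every interval crosses 0, and the pair differences of Olfml3 and Gpr34 lie on both sides of it.

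Much of the variation of these genes over the arrays followed the replicate number, and how much depended on whether the arrays were centred. By the mean of each pair, all 10 were brightest on the arrays numbered 2, as were 60.5% of tested probe sets. Those 2 arrays also had the highest medians over all 35557 probe sets, 7.89 in wild-type and 7.92 in fosB-null. Centring, here and below, used the median of each array over the 23410 tested probe sets. After it, 5 genes were brightest on the arrays numbered 1, the other 5 on those numbered 2, and none on those numbered 3. Of tested probe sets, 45.3%, 26.7% and 27.96% were brightest on numbers 1, 2 and 3. When the sum of squares of the deposited values over the 6 arrays was divided, the replicate number took a median of 77.7% over the 10 genes and the genotype 4.41%. After centring these medians were 50.9% and 6.15%. In the deposited values the genotype share was highest for Fcrls at 18.9% and Slco2b1 at 18.5%, and lowest for Tmem119 at 0.163%. After centring it was 42.8% for Fcrls, 27.8% for Slc2a5, 22.1% for Slco2b1 and 21.4% for Cx3cr1, and lowest for Crybb1 at 1.10%. The replicate number took a larger share than the genotype for every gene in the deposited values, but after centring it took less for Cx3cr1, at 4.78%, and Slc2a5, at 23.6%. The remainder is the disagreement between pairs. It was the largest part for Olfml3 and Gpr34 at 77.0% and 54.3%, and after centring for these genes at 78.4% and 84.6%, for Cx3cr1 at 73.8% and for Slc2a5 at 48.7%. In the deposited values, over the 16902 tested probe sets that were not tied in all pairs, the median shares were 93.0% for replicate number and 1.94% for genotype. Over all 23410 tested probe sets, ties included, they were 97.8% and 0.51%, and after centring 96.7% and 0.628%. Exact ties add to the replicate share, so this split describes these values and was not tested.

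**Figure D3:**
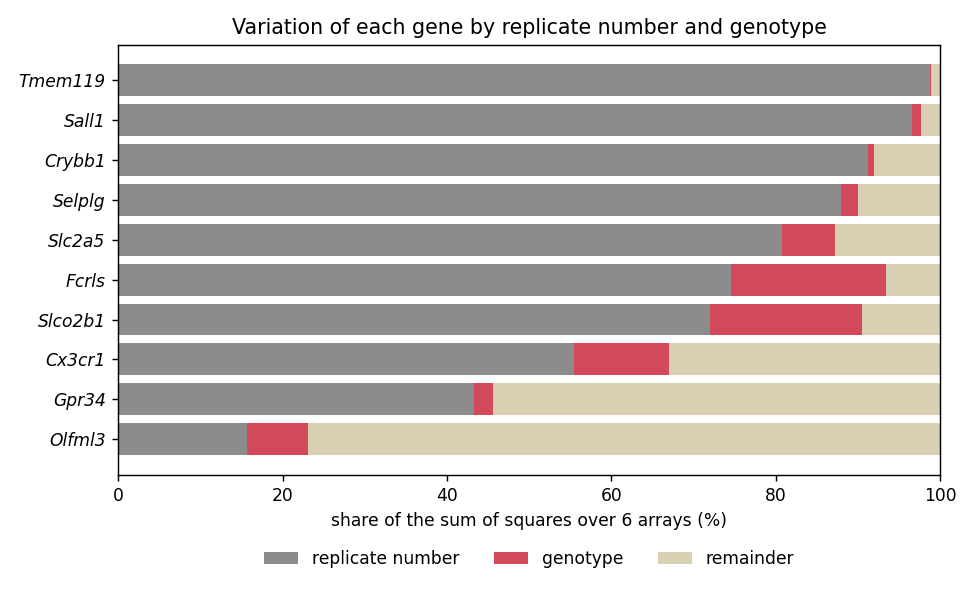
Share of the sum of squares of the deposited values, with arrays not centred, over 6 arrays (horizontal axis, %) taken by replicate number, by genotype and by the remainder, for each gene. In these values the genotype part reaches 18.9% at most (Fcrls) and the remainder is the largest part for Olfml3 and Gpr34, whereas after centring the genotype part of Fcrls is 42.8% and the remainder is the largest part for Cx3cr1 and Slc2a5 too.

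The genes of the signature tracked each other loosely over the 6 arrays. Of 45 gene pairs, 44 had a positive Pearson correlation, with a median r of 0.58, but after centring of the arrays 34 did, with a median of 0.29. Cx3cr1 and Gpr34 had an r of 0.92, or 0.84 after centring, and Fcrls and Olfml3 had -0.10, or -0.49. These values describe 6 arrays that share replicate numbers and overall brightness, and they were not tested.

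Slco2b1 and Olfml3 had the widest ranges over the 6 arrays, 0.61 and 0.52. Among 896 other genes with a signal above the median and a range of at least 0.5, those most like Slco2b1 over the 6 arrays were Plxdc1 (r = 0.99), Acsf2 (r = 0.99) and Zfp579 (r = 0.99). As many as 71 of the 896 had an r above 0.9 with Slco2b1, which drops on the arrays numbered 3. Olfml3 had only 4 such genes, led by Tmem26 (r = 0.95), Tcim (r = 0.94) and H60b (r = 0.92). Tcim differed by -0.39 between the genotypes and Tmem26 by -0.29, both with wild-type array 2 the highest of the 6.

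Other genes of the homeostatic signature were compared in the same fit. Of 27 measured genes of 30 listed, which include the purinergic receptors and Csf1r, none passed the test. By mean 14 were higher, 10 lower and 3 at a difference of 0, with a median of 0.00. Those 3 were tied in all pairs, so their difference was not measured. The ADP receptor gene P2ry13 had the lowest p of the list. Its log2 signal was 10.18, 10.47 and 10.69 on wild-type and 10.63, 10.78 and 10.72 on fosB-null arrays, a difference of 0.27 (95% interval from -0.04 to 0.58, limma adjusted p = 1). The sialic acid receptor gene Cd33 differed by 0.20, with pair values of 0.12, 0.32 and 0.16. Sparc, a matricellular protein gene, differed by -0.13, with pair 3 tied.

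Transcription regulators of microglia did not pass the test either, in 15 measured of 16 listed. By mean 5 were higher, 8 lower and 2 at 0, with a median of -0.02 and a range from -0.18 to 0.03. The 2 at 0 were tied in all pairs, so their difference was not measured. Smad3, which carries the TGF-beta signal to the nucleus, differed by -0.13, with pair values of -0.08, -0.21 and -0.09 (limma adjusted p = 1). Bhlhe41 and the AP-1 gene Jun differed by -0.07 and -0.11, Jun with pair 2 tied.

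Among family relatives and ligands of the signature genes, 32 measured of 34 listed, none passed. By mean 8 were higher, 9 lower and 15 at a difference of 0. Those 15 were tied in all pairs, so their difference was not measured. The glucose transporter gene Slc2a6, a relative of Slc2a5, had log2 signals of 9.59, 9.99 and 10.13 on wild-type and 10.11, 10.53 and 10.18 on fosB-null arrays. The groups overlapped by a narrow margin, and the difference was 0.37 (95% interval from -0.03 to 0.78, limma adjusted p = 1). Its pairs differed by 0.52, 0.54 and 0.05. Slco4a1, a relative of Slco2b1, differed by 0.32, mostly from pair 2 at 0.73, and Olfml2b, a relative of Olfml3, by -0.18 with pair 3 tied.

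Genes of disease-associated microglia, which rise in the course of neurodegeneration while homeostatic genes fall, were compared alongside. None of 17 measured of 18 listed passed, 10 were higher and 7 lower, with a median of 0.00. The cystatin gene Cst7 differed by 0.28 with a tie in pair 1 and 0.50 and 0.33 in pairs 2 and 3, and it alone had an unadjusted p under 0.05, at 0.0349 (limma adjusted p = 1). The receptor tyrosine kinase gene Axl differed by 0.17 and Apoe by -0.10, and the 3 pairs of each gene pointed one way. That pattern was found in 7.77% of tested probe sets, or 1820 of the 3520 without a tied pair.

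Marker lists were set beside the signature genes to describe the cultures. General microglia and macrophage markers had a mean log2 signal of 12.8 to 13 on the arrays of either genotype, with Cd68 and Fcer1g the brightest. The 10 signature genes averaged 10.28 to 10.53 on wild-type and 10.32 to 10.45 on fosB-null arrays. In pairs 1, 2 and 3 this mean differed by 0.06, -0.08 and 0.04.

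Markers of border macrophages averaged 9.58 to 9.79 on wild-type and 9.67 to 9.80 on fosB-null arrays, and differed by 0.09, 0.01 and 0.10 in the pairs. Of the 10 markers 7 were higher, 1 lower and 2 at 0, and none passed. Stab1 and Ms4a7, the brightest, differed by 0.18 and 0.01. Mrc1, the mannose receptor gene, had the largest difference of the list at 0.27, with pair values of 0.29, 0.55 and -0.03. Siglec1 differed by 0.15 and was higher in all 3 pairs. The only lower marker, Clec4n, differed by -0.24, with pair 1 tied and -0.73 and -0.0017 in pairs 2 and 3. Cd163 and Lyve1 gave 6.32 to 6.78 and 6.84 to 6.94, below the median of every array, and each was tied in all pairs, so their difference was not measured. The part of these markers in the signals of the signature genes was not tested.

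For lists of other brain and blood cell markers, the list means of the groups overlapped. The astrocyte list averaged 7.25 to 7.40 in both groups, with Aldh1l1 and Sox9 the brightest. In 9 of its 12 genes all pairs were tied, so their difference was not measured. Oligodendrocyte lineage markers averaged 8.23 to 8.47 on wild-type and 8.22 to 8.38 on fosB-null arrays, with 5 of 9 lower, 1 higher and 3 at 0, and Cnp and Mbp the brightest. Mbp had log2 signals of 10.06, 9.86 and 9.76 on wild-type and 9.74, 9.62 and 9.70 on fosB-null arrays. Its groups did not overlap, as for 1.12% of tested probe sets, or 262 of the 3520 without a tied pair. Mbp differed by -0.21, was lower in all 3 pairs and did not pass (limma adjusted p = 1). The part of this list in the signals of the signature genes was not tested. Neuronal markers averaged 7.20 to 7.29 and 7.20 to 7.26, led by Syp and Gad1, with 2 of 10 higher and 5 lower. Fibroblast and mural markers averaged 7.25 to 7.44 and 7.33 to 7.53, led by Col1a1 and Col1a2, with 6 of 10 higher and none lower. Endothelial markers averaged 7.85 to 8.01 and 7.86 to 8.04, led by Flt1 and Vwf, with 3 of 7 higher and 3 lower. Blood leukocyte markers averaged 6.26 to 6.50 and 6.27 to 6.52, led by Cd3e and Mpo, with 6 of 10 higher and 4 lower. In these lists every marker at a difference of 0, Cnp among them, was tied in all pairs, so its difference was not measured. None of these markers passed the limma test, and no list mean stood apart between the groups. Every astrocyte and neuronal marker was tied in pair 1, which forces the means of these lists to overlap.

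**Figure D4:**
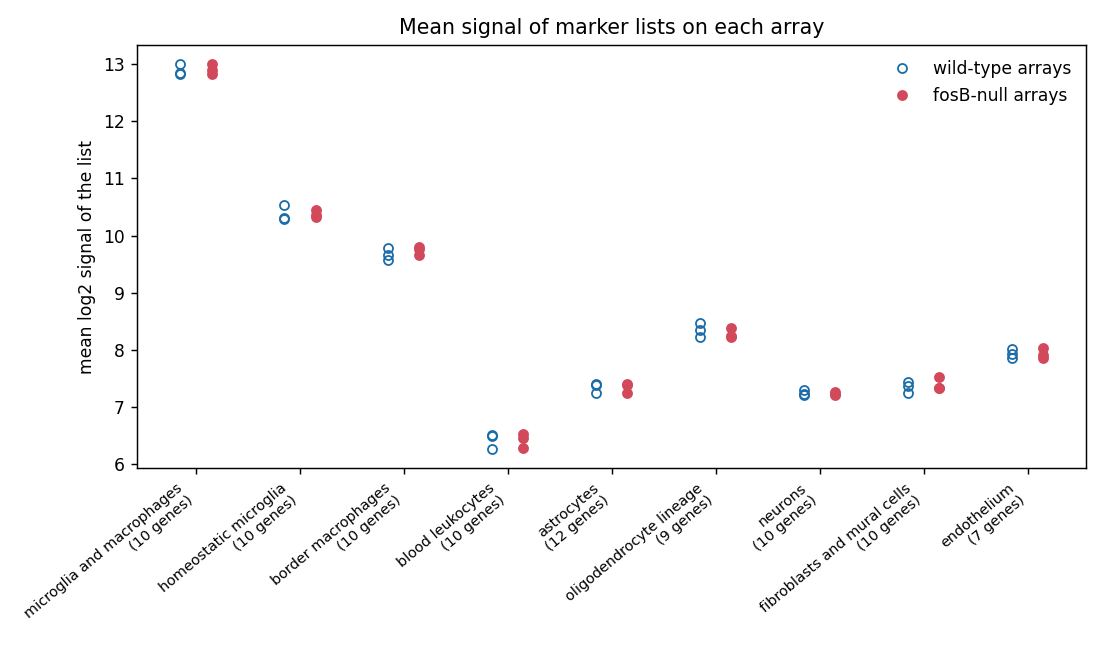
Mean log2 signal (vertical axis) of each marker list on the 3 wild-type (open) and 3 fosB-null (filled) arrays. The groups overlap for every list, and heights of different lists also depend on their probes.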

How the data were processed

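The authors deposited log2 signals, 1 per probe set and array. The submitters' processing notes name Affymetrix Expression Console. The scale was judged log2 because all values lay between 1.73 and 14.6. The sources used here name no probe summary method and no normalization. Of 35557 probe sets, 23410 with at least 1 gene symbol in the platform table were tested and 21789 had exactly 1. Where a gene had several, the one with the highest mean stood for it. Symbols were updated through a RefSeq table (GRCm38.p6), also used for gene order.

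The genotypes were fitted by lmFit and eBayes of limma 3.58.1 under R 4.3.3, two-sided, with no block, no filter and Benjamini-Hochberg adjustment over all 23410 at 0.05. The code was tested on simulated data. Precision is limited by there being 3 arrays a group. The replicate numbers pair the deposited values, though the labels state no pairing of the samples. Deviations from the group means correlated at 0.72, 0.33 and 0.32 in the 3 pairs over the 3520 probe sets with no tied pair. The genes, lists and motifs were chosen with earlier results of these data known. Named beside the 10 genes are the 3 list genes with the lowest p and the 2 brightest markers of each list. Cd163, Lyve1, Mrc1, Siglec1 and Clec4n were added after their values were seen. Also named are the 3 genes most like each of the 2 with the widest range. These came from genes above the array median with a range of at least 0.5. Predicted genes and small RNAs were passed over.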

Additional observations from a re-analysis of the deposited data

How the results depend on the processing

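None of the 10 signature genes was called in any fit tried: median centring or quantile normalization, removal of the dimmest 40% (Slc2a5 among them), single-gene or all probe sets, eBayes made robust or given an intensity trend, array weights, a threshold of 0.10, no moderation, 3 forms of replicate block, and each array or pair left out. The lowest adjusted p was 0.371, for Fcrls under the random replicate block. Over all tested probe sets 1 was called in the comparison as reported and 47 with the random block. The replicate block called 0 (541 at an unadjusted p under 0.05), or 0 with its prior from differing probe sets (796), and no moderation called 0 (104). With arrays or pairs left out the count ranged from 0, without any 1 pair, to 2, without wild-type replicate 3. The blocks changed no call of a signature gene. Quantile normalization turned Tmem119 to -0.0024 and Crybb1 to -0.012. With arrays or pairs left out, the median over the 10 genes ranged from -0.033 (without fosB-null replicate 2) to 0.064 (without wild-type replicate 2). The differences ranged from -0.041 to 0.061 for Tmem119, -0.067 to 0.030 for Sall1, -0.044 to 0.213 for Gpr34, -0.27 to 0.094 for Olfml3, -0.050 to 0.070 for Selplg, -0.026 to 0.107 for Slc2a5 and -0.032 to 0.070 for Crybb1. They kept their sign at 0.0038 to 0.144 for Cx3cr1, 0.032 to 0.207 for Fcrls and -0.24 to -0.027 for Slco2b1. Each gene had 1 probe set, so other rules for choosing or averaging probe sets could not be run.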
